A study of Mus musculus with 6 samples.

Results

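The regions of the mouse genome where both libraries of normal hematopoietic stem cells (HSCs) had a NUP214 CUT&Tag peak were examined. A region was kept where peaks of the authors' HSC lists overlapped by at least 1 bp on chromosomes 1 to 19, X or Y, and each pair was merged to its union. This gave 219 regions, covering 158.784 kb, out of 1451 merged HSC regions of either library and 34085 merged regions of all 6 libraries. They held 222 of the 1045 peaks of HSC library 1 (21.2%) and 225 of the 634 peaks of HSC library 2 (35.5%). Because the HSC peaks chose the members, their HSC values and their division by leukemia peaks are given as a description, with no test.

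CUT&Tag, in which an antibody tethers a transposase that cuts and tags nearby DNA, was done with an antibody against NUP214 on sorted mouse bone marrow cells, in 3 groups of 2 libraries. HSCs were CD48-CD150+LSK cells of genotype Nup214fl/+. Control leukemia stem cells (LSCs), c-Kit+ CD34+ CD16/32+ cells, negative for Sca-1 and lineage markers, from MLL-AF9 acute myeloid leukemia, were also Nup214fl/+. Nup214-HET LSCs had the same gate and leukemia and were Nup214fl/+,Tie2-Cre, so a floxed Nup214 allele was common to all groups. Tie2-Cre is active in endothelial as well as blood cells. The labels give HSC as the cell type of all 6 libraries, so the groups follow the titles. No library is labelled as one without the NUP214 antibody, and no label says that libraries came from separate animals, so a p-value speaks of the spread among these libraries alone, and that spread may be technical.

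NUP214 is a nucleoporin on the cytoplasmic face of the nuclear pore, where it takes part in protein and RNA export. Some nucleoporins also contact chromatin, at the pore or in the nucleoplasm. Mouse chromosomes are telocentric: the centromere and its satellite arrays lie at one tip, where the assembled sequence opens with a gap, and repeats near both tips are collapsed or incompletely placed in the assembly. Reads from such repeats can pile up on the few copies that the assembly holds.

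Of the 219 regions, 6 overlapped a RefSeq promoter window, the 250 bases before and 50 after a transcription start in GRCm38.p6, the build that mm10 names. The 6 regions met 9 of 32817 windows (0.0274%), and all 6 had a peak in all 4 LSC libraries. A window from each of 5 of the regions is printed whole, with at least 1 of the marked motifs in each window. The region covers 87 bases of the Sp1 window, 289 at 4932412D23Rik, 94 at Rab40c, 159 at Ppm1b and 220 at Add3. A marked motif can therefore lie outside the region, and no whole motif of the Rab40c window lies inside it. The regions at Sp1, Rab40c, Ppm1b and Add3 overlap the upstream part of the printed window and stop short of the start of that gene. Capitals mark GGGCGG, the core bound by Sp1-family factors, and CCAAT, the core bound by NF-Y, each on either strand (CCGCCC and ATTGG); where the letters ATTGGGCGG stand together, the motifs overlap.
Sp1, chr15:102406066-102406365, plus strand: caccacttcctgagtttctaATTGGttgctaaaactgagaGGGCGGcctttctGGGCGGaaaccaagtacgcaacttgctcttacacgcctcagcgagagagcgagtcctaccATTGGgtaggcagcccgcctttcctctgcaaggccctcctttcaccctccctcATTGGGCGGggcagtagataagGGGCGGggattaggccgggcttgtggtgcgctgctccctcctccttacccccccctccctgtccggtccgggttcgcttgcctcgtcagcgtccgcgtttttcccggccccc
4932412D23Rik, chr16:42875538-42875837, minus strand: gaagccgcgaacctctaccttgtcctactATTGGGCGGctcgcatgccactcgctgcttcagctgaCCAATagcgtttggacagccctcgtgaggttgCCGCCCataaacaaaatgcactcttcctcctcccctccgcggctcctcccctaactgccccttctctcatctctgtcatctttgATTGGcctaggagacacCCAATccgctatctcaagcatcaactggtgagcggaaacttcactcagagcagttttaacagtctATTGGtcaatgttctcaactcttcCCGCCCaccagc
Rab40c, chr17:25919665-25919964, minus strand: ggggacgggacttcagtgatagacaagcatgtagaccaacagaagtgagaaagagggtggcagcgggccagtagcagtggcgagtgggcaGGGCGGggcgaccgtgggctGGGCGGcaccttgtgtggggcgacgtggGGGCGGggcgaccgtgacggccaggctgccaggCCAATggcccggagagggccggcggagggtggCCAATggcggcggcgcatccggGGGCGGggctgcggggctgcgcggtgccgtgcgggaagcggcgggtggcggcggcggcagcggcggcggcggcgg
Ppm1b, chr17:84957751-84958050, plus strand: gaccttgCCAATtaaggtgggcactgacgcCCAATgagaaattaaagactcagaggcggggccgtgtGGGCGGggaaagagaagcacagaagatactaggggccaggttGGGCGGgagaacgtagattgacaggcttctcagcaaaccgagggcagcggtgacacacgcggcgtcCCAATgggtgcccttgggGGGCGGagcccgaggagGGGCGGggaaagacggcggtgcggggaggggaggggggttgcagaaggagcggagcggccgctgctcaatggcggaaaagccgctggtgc
Add3, chr19:53142506-53142805, plus strand: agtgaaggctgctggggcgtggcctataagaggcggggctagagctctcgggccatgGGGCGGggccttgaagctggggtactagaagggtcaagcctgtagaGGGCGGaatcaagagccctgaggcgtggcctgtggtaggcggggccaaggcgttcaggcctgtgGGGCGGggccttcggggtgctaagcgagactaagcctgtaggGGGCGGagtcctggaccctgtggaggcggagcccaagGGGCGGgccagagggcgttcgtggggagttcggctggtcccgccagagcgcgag

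GGGCGG stood in 7 of the 9 windows and in 35.6% of all windows. CCAAT stood in 7 of the 9 and in 37.4% of all windows. Among the 1176 windows with a peak in all 4 LSC libraries the shares were 80.6% and 54.6%. The Sp1 window held 4 copies of GGGCGG and 3 of CCAAT, the Ppm1b window the same numbers, the Rab40c window 4 and 2, and the Add3 window 5 and 0. These 9 windows are not independent. 3 lie over the region at Ppm1b and the lncRNA 1110020A21Rik, and 2, both of the lncRNA 4932412D23Rik, over the region near an end of Zbtb20. A match describes letters and is not a site of binding.

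The other region was of another kind. Gm40237, a lncRNA gene on chromosome 4, starts within an array of 44-base units, shown here because it is the only one of the 9 windows with a clear tandem repeat; capitals and lower case alternate from one unit to the next.
Gm40237, chr4:118547156-118547455, plus strand: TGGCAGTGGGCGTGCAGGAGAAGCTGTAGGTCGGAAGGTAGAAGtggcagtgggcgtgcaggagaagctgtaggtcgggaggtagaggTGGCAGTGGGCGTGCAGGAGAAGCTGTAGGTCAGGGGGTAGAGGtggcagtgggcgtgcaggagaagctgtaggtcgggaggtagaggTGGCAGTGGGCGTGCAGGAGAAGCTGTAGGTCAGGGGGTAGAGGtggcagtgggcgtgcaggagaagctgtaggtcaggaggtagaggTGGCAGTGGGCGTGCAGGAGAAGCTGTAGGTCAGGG

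Bases 44 apart in this window were identical at 96.1% of positions over 6 whole units. No other of the 9 windows exceeded 41.3% at any period searched, and 15 of all 32817 windows (0.0457%) passed 80%. The region, chr4:118547222-118548729, was 1508 bp wide, and the authors' fold was 23.0 and 22.6 in the HSC libraries, 24.6 and 25.02 in control and 15.4 and 15.3 in Nup214-HET LSCs. By q, the caller's p after adjustment for multiple testing, it ranked 19th in HSC library 1 and 22nd in library 2. Fold is the summit over the local background of its own list and ranks peaks only within that list.

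Most HSC regions were also NUP214 peaks in leukemia cells. A peak of all 4 LSC libraries met 109 regions (49.8%, Wilson 95% interval 43.2 to 56.3%), against 19.3% of the 1451 HSC regions of either library. A further 100 regions (45.7%) had a peak in 1 to 3 LSC libraries, and 10 (4.57%, 2.50 to 8.20%) had none. The count with none was 23 without control LSC library 1 and 18 without Nup214-HET LSC library 1. With each LSC list cut to its strongest 4681 peaks it was 25, and with a cut to 634 it was 83, where 51 regions had all 4. Of the 823 regions seen in HSC library 1 alone, 167 (20.3%) had all 4 and 388 (47.1%) had none. Of the 409 seen in library 2 alone, 4 (0.978%) had all 4 and 329 (80.4%) had none. Intervals cover counting error only, and the lists hold no totals of reads.

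**Figure D1:**
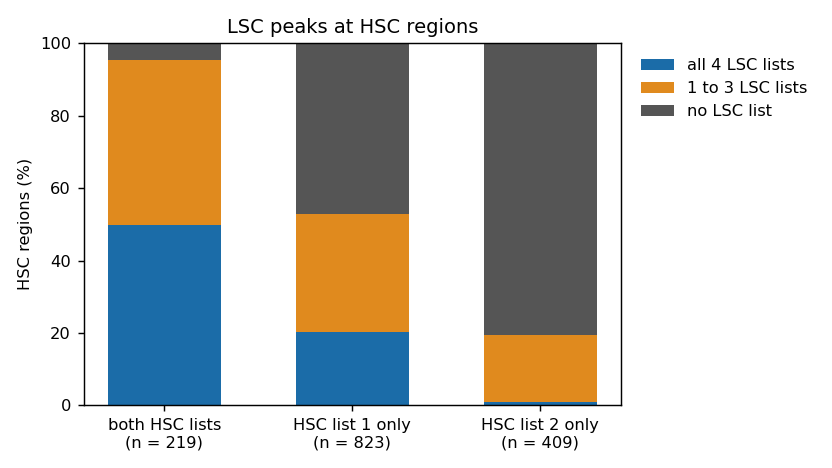
Share of HSC regions (%) with a peak in all 4, 1 to 3 or none of the LSC lists, for the 219 regions of both HSC lists and for the 823 and 409 regions of a single HSC list. The all-4 part is 49.8%, 20.3% and 0.978% in that order.

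Pairs just inside the rule overlapped by 50, 69 and 84 bp, and the nearest pairs outside it were 75, 130 and 312 bp apart. The median overlap was 363 bp. Folds of the pair with 50 bp were 4.20 and 5.66, and folds of the pair 75 bp apart were 5.62 and 5.71. 8 pairs outside were less than 1000 bp apart.

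The strongest peaks of both HSC lists were mostly among these regions. Of the 100 peaks with the highest −log10 q, 94 in library 1 and 100 in library 2 belonged to them. The median fold percentile of a member within its list was 87.9 in library 1 and 81.2 in library 2. Members reached down to percentiles of 0.239 and 0.394, and 58 of the 219 were in the top 10% by fold of both lists. 25 regions were among the 100 strongest by q in all 6 lists. The strongest of all, chr2:98666250-98667333, was first by q in each of the 6. Its −log10 q was 7428 in HSC library 1 and 5605 in library 2, and its fold was 20.5 and 20.1.

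**Figure D2:**
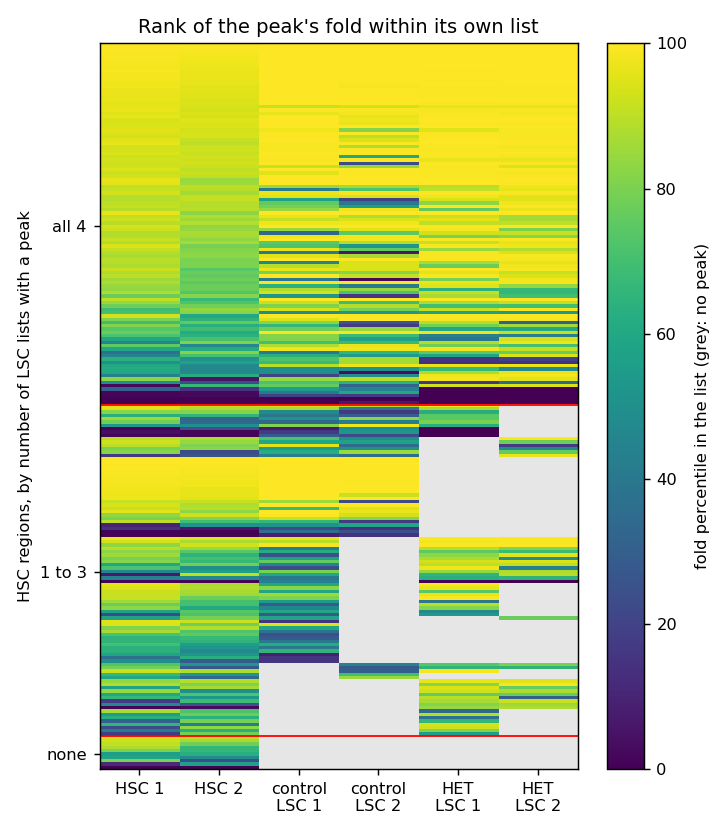
Percentile of the authors' fold within each of the 6 lists (colour, 0 to 100) for the 219 HSC regions (rows, grouped by the number of LSC lists with a peak; grey where a list has none). Regions with all 4 LSC lists had median HSC percentiles of 90.8 and 85.7, and the 24 in both control lists and neither Nup214-HET list 97.3 and 96.1.

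Control LSC libraries 1 and 2 had a peak at 187 (85.4%) and 154 (70.3%) of the 219 regions. Nup214-HET LSC libraries 1 and 2 had one at 163 (74.4%) and 141 (64.4%). Over the HSC regions of either library the shares were 38.5%, 29.6%, 32.1% and 30% in the same order. The ranges of the groups overlap. The means were 77.9% ± 10.7 (SD, n = 2) in control LSCs and 69.4% ± 7.10 (SD, n = 2) in Nup214-HET LSCs, and the difference of 8.45 percentage points did not exceed the spread between libraries (two-sided exact permutation test, p = 0.667; the smallest p that 2 against 2 allows is 0.33). The control lists were longer, and with the LSC lists shortened to the same 4681 peaks the difference turned to -16.7.

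At these regions the median fold percentile of the LSC peaks was 86.7 and 91.5 in control and 93.8 and 96.5 in Nup214-HET LSCs. Both Nup214-HET values were above both control values. The difference, control minus Nup214-HET, was -5.98 points, from 89.1 ± 3.39 (SD, n = 2) to 95.1 ± 1.90 (SD, n = 2), with p = 0.333, the smallest that the two-sided exact permutation test allows here. With lists of equal length it was 1.14, of the other sign.

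24 regions had a peak in both control LSC libraries and neither Nup214-HET library, and 9 had the reverse. The shares of these patterns over the 1451 HSC regions of either library were not counted, so the counts have no background here. The control lists were also longer, with 25437 and 10525 peaks against 5452 and 4681 in the Nup214-HET lists. The 24 were narrow and strong. Their width was 233 to 587 bp with a median of 286.5 bp, against 562 bp for the 9, and their median HSC fold was 24.04 and 23.6, against 9.92 and 8.46 over all 219 regions. 14 of the 24 were in the top 10% by fold of both HSC lists. The HSC summits of these regions lay a median of 7.5 bp apart, and 28 bp apart over all regions.

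At the head of the 24 stood chr12:3109872-3110140, between genes and 137288 bp from Rab10, a vesicle transport GTPase. The authors' fold there was 45.4 and 40.8 in HSCs and 58.2 and 57.5 in control LSCs, and it was 4th by q in both HSC lists. The next was chr6:103649048-103649333, inside Chl1, which encodes a neural adhesion molecule. Its fold was 45.1 and 40.3 in HSCs and 58.2 and 54.7 in control LSCs.

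Inside Flt1, a receptor for vascular endothelial growth factor, chr5:147611435-147611707 had folds of 41.4 and 36.8 in HSCs and of 54.7 and 41.9 in control LSCs. A region 15385 bp from Adgre5, the leukocyte adhesion receptor CD97, had HSC folds of 40.6 and 37.9 and control LSC folds of 53.7 and 45.3. Others of the 10 strongest lay inside Ttc21b, a ciliary transport gene, and Lama1, a laminin chain, with folds of 34.9 and 33.7 and of 32.2 and 30.2 in HSCs. Each of these 6 was among the 100 strongest by q in both HSC and both control lists and in neither Nup214-HET list. All but the Lama1 region also had a local background at least 10 times the lowest in a HSC list, a measure described below. So had 10 of the 24 regions, against 50 of all 219.

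Peak width moved with this pattern. The smallest peak of any kind was 320 and 329 bp wide in the Nup214-HET lists, 145 and 143 bp in the control LSC lists, and 205 and 229 bp in the HSC lists. 19 of the 24 regions were narrower than 320 bp. Among all 34 HSC regions below this width, 24 (70.6%) had both control libraries and 4 (11.8%) both Nup214-HET libraries. Among the 185 wider ones the counts were 125 (67.6%) and 130 (70.3%). Over the wider regions the difference in share between the groups was -0.811 points in place of 8.45.

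Control LSC peaks ranked without the HSC lists were in part the same regions. Of 74 control regions among the 100 strongest by q in both control lists, 13 were narrower than 320 bp, and none of the 13 had a peak in either Nup214-HET list. Of these 13, 9 were called in both HSC lists and 4 were not. Of the 61 wider ones, 53 had a peak in both Nup214-HET lists and 6 in neither.

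**Figure D3:**
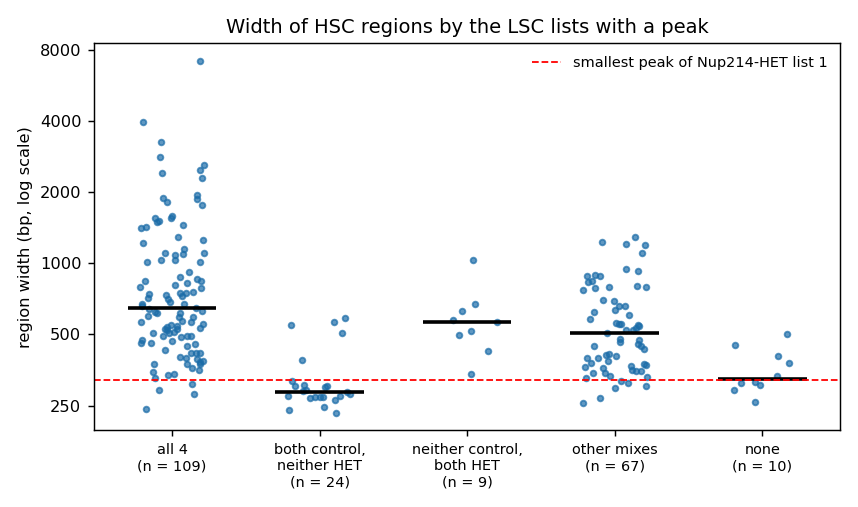
Width of each HSC region (bp, log scale; points) by the LSC lists that have a peak there, with the median as a bar and the smallest peak of Nup214-HET list 1 (320 bp) dashed. 19 of the 24 regions in both control lists and neither Nup214-HET list lie below the dashed line, and the medians are 645 bp for all 4 lists and 324.5 bp for none (540 and 497 bp with the LSC lists cut to 634 peaks).

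Widths of the 219 regions ran from 233 to 7189 bp with a median of 530 bp, against 265 and 266 bp for regions of a single HSC library. The median was 645 bp for regions with all 4 LSC libraries, 447.5 bp with some and 324.5 bp with none. This order was lost with the LSC lists cut to the 634 strongest peaks, where the medians were 540, 572 and 497 bp. Of 39 regions wider than 1 kb, 33 had all 4. The union of a pair of peaks is wider than either peak, so the single-library widths are not like for like.

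Regions near chromosome tips were frequent. 28 (12.8%, 8.996 to 17.9%) were in the first 4 Mb of chromosome coordinates, which take 3.09% of the span, or 0.790% once the opening gap of 3 Mb is left out. 26 (11.9%, 8.23 to 16.8%) were in the last 1 Mb before the end of the last annotated gene, or beyond that end. The 1 Mb is 0.772% of the span, which stops at the last gene, so sequence beyond it is in the count but not in this share. Neighbours are counted separately here: 12 of the 28 were 1 array on chromosome 9 and 3 were 1 cluster on chromosome 10, so the intervals are too narrow. With regions less than 10 kb apart counted as 1 locus, 15 of 198 loci (7.58%) were in the first 4 Mb and 22 (11.1%) in the last 1 Mb. Regions of HSC library 1 alone were there in 1.46% and 1.34% of cases, and the 4 whole LSC lists in 1.05 to 1.37% and 1.17 to 1.54%. Of the 10 regions without an LSC peak, 4 were in the first 4 Mb.

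The local background under each peak was recovered by inverting the MACS2 formulas for fold and −log10 p, and is expressed relative to the lowest of its list. It averages over the surroundings of a summit and holds the summit itself, so a very strong peak raises it. 50 regions (22.8%) had at least 10 times the lowest background in a HSC list, 41 of them in both, against 4.69% and 8.68% of all peaks of the HSC lists. The 22.8% counts merged regions that passed in either list, and the other shares count peaks within 1 list, so they are not like for like. The 50 regions made up 61.158 kb, or 38.5% of the covered length. 35 of the 50 had all 4 LSC libraries, 14 some and 1 none, and 18 were in the first 4 Mb. None was within 1 kb of the end of a protein-coding gene. The other 169 regions divided as 74, 86 and 9, and held all 10 that were near a gene end.

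**Figure D4:**
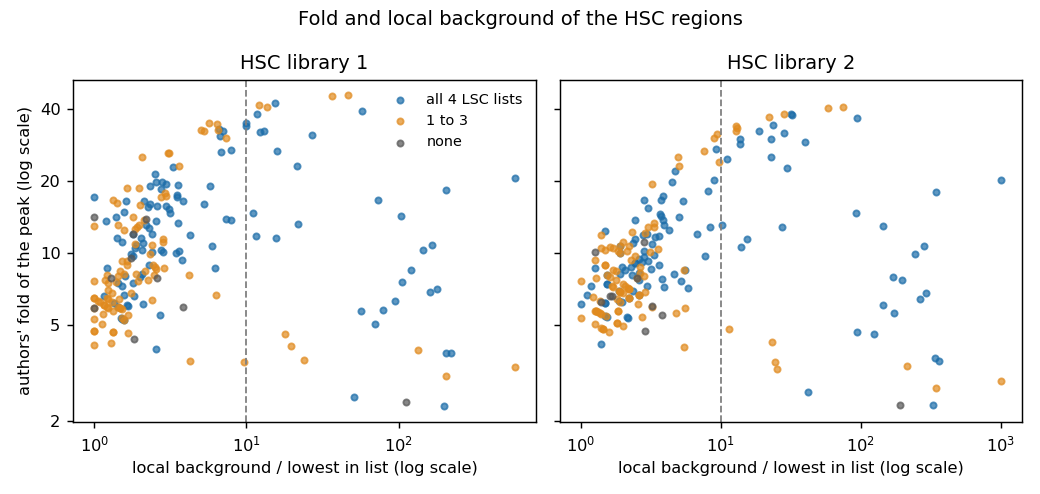
Authors' fold of each HSC region against its local background relative to the lowest of the list (both log scale) in HSC library 1 and library 2, coloured by LSC class, with 10 times dashed. The highest folds, 45.4 in library 1 and 40.8 in library 2, lie to the right of the dashed line, at 46.2 and 74.1 times. Regions farther to the right include low folds such as 2.30.

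The densest group was an array of 12 regions at chr9:3000004-3038267, at the first assembled bases of chromosome 9. They covered 25.561 of 38.264 kb. Background was 56.9 to 219 times the lowest in HSC library 1 and 94.2 to 363 times in library 2, while folds were only 2.30 to 10.8 in library 1. The array held 3 of the 5 widest regions, of 7189, 3272 and 2807 bp. The widest had folds of 6.86 and 6.42 in HSCs, 10.1 and 6.92 in control and 4.86 and 4.79 in Nup214-HET LSCs. 10 of the 12 had all 4 LSC libraries, 1 some and 1, chr9:3008440-3008774, none.

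2 more clusters had 3 regions each. At chr10:3109551-3117054 all 3 had every LSC library, with background at 69.5 to 94.0 and 125 to 172 times the lowest and one region of 3973 bp. At chr13:119596770-119602702, inside the gene Tmem267, background was 17.9 to 21.7 and 23.3 to 27.5 times. On chromosome 2 the pair at chr2:98662243-98667333, which holds the strongest region by q, had the highest background of all, 579 and 1008 times. The pair at chr14:19415727-19419466 had 205 and 342 times, and its larger region, 2597 bp wide, was 2nd by q in 5 of the 6 lists and 3rd in control LSC library 1. No sequence of these spans was used here, and nor were published lists of regions to leave out.

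Regions also lay beside ribosomal and immunoglobulin genes. The region chr17:39845014-39845639 was 715 bp from Rn18s-rs5, a pseudogene related to 18S ribosomal RNA. Its fold was low in every library, 2.52 and 2.64 in HSCs, 2.93 and 3.22 in control and 2.94 and 2.98 in Nup214-HET LSCs, on a background 51.0 and 42.0 times the lowest. The region chr12:113424324-113425421, in the Igh locus and 1594 bp from Ighm, the immunoglobulin mu constant region, had folds of 16.1 and 11.8, 25.9 and 25.6, and 15.3 and 15.2 in the same order.

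The HSC regions were divided by their position relative to annotated genes. The share between genes is not given for other sets, so it has no background here. There were 112 (51.1%) between genes, 70 (32.0%) inside a protein-coding gene and away from its ends, 27 (12.3%) inside another kind of gene and 10 (4.57%, 2.50 to 8.20%) within 1 kb of either end of a protein-coding gene, against 13.1% of HSC regions of either library. Gene-end windows take 2.91% of the chromosome span. The share was 20.8% (18.1 to 23.7%) for regions of HSC library 1 alone, 2.2% (1.16 to 4.13%) for those of library 2 alone, and 35.3 to 39.4% for peaks of the LSC lists. Overlap with a protein-coding gene at any point was 34.7%, against 42.8% of HSC regions of either library, and such genes take 37.9% of the span. It was 45.9% for regions of HSC library 1 alone and 40.8% for those of library 2 alone.

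**Figure D5:**
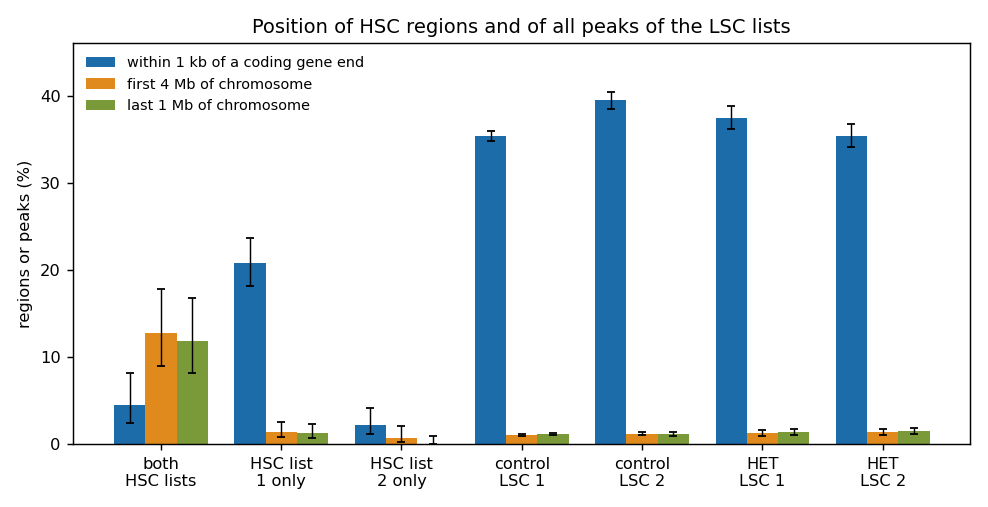
Share (%) within 1 kb of a protein-coding gene end, in the first 4 Mb and in the last 1 Mb of chromosomes, with Wilson 95% intervals, for HSC regions of both lists, of a single list, and for all peaks of each LSC list. The 219 regions stand at 4.57%, 12.8% and 11.9%, and peaks of the LSC lists at 35.3 to 39.4% for gene ends.

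Of the 10 gene-end regions, 6 had all 4 LSC libraries. Upstream of Sp1, the GC-box transcription factor, chr15:102405662-102406152 had folds of 8.21 and 4.18 in HSCs, 10.6 and 9.97 in control and 10.99 and 8.89 in Nup214-HET LSCs. It was 190th by q in HSC library 1 and 613th of 634 in library 2, so it stood near the end of the shorter list. Zbtb20, a zinc finger repressor, had 5.98 and 6.17, 16.5 and 13.6, and 10.9 and 7.85 in the same order. The first printed promoter is that of Sp1. The second is that of the lncRNA 4932412D23Rik, whose start lies in the region near an end of Zbtb20, and not a promoter window of Zbtb20 itself.

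Rab40c, a Rab GTPase of a ubiquitin ligase, had folds of 6.13 and 5.49 in HSCs, 11.9 and 13.4 in control and 9.78 and 9.40 in Nup214-HET LSCs. Ppm1b, a protein phosphatase, had 7.52 and 6.17, 17.9 and 17.1, and 10.6 and 7.96. The regions at Sp1, Zbtb20, Rab40c and Ppm1b were modest peaks of the HSC lists, below the median fold of the 219 regions in both libraries. Lars2, the mitochondrial leucyl-tRNA synthetase, was stronger, with 19.3 and 8.77, 42.9 and 31.4, and 21.5 and 20.5. Lypd4 had 7.93 and 6.52, 13.9 and 23.1, and 11.8 and 11.7.

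The other 4 gene-end regions had some LSC libraries. Beside Wls, which carries Wnt proteins to the cell surface, a 274 bp region had folds of 25.03 and 25.1 in HSCs and 32.3 and 10.6 in control LSCs, with no Nup214-HET peak. The predicted genes Gm32584, with 2 regions, and Gm51572 had HSC folds from 10.1 to 26.1 and no peak in control LSC library 2. Add3, an adducin of the membrane skeleton, has its printed start inside the gene, so it is not among the 10. Its region had 9.90 and 7.32 in HSCs, 20.4 and 16.8 in control and 9.96 and 10.98 in Nup214-HET LSCs.

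None of the 31 HSC identity genes, none of the 18 granulocyte-monocyte genes and none of the 32 nucleoporin genes had a HSC region within 10 kb, where 0.48% of all protein-coding genes did; at this background, lists of such sizes would mostly hold none. The same held for 7 B cell genes, 7 genes of T and NK cells, 9 erythroid genes, 6 of megakaryocytes and 6 of endothelium and stroma. The HSC label could therefore not be checked against its markers at these regions. Of 14 targets of MLL fusions 1 had a region, Cdk6, a cell cycle kinase. The region inside it, chr5:3479865-3480371, had folds of 8.14 and 7.31 in HSCs, 7.47 in control LSC library 1, and 6.37 and 5.75 in Nup214-HET LSCs, and was not called in control LSC library 2. It was 9565th by q in control LSC library 1.

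Among noncoding genes, 25 regions (11.4%) overlapped a lncRNA, close to the 10.1% of HSC regions of either library, and 1 overlapped a snoRNA, and none overlapped an annotated tRNA, rRNA, snRNA or miRNA.

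Regions with all 4 LSC libraries were ranked by mean HSC fold percentile, which is not the order by q. The first 10 lay mostly outside protein-coding genes, where 29.4% of all 109 regions of this class overlapped one. First was chr12:120028663-120029008, 7421 bp from Tmem196, with folds of 42.3 and 38.0 in HSCs, 58.8 and 50.9 in control and 28.2 and 27.2 in Nup214-HET LSCs. A region 29263 bp from Rpusd4, a mitochondrial RNA pseudouridine synthase, was 3rd by q in both HSC and both Nup214-HET lists, with 39.1 and 36.6, 48.4 and 46.5, and 26.5 and 26.3. Inside Smo, the signal transducer of the Hedgehog pathway, a region of 1111 bp had 31.2 and 29.2, 37.4 and 32.4, and 21.3 and 20.0. Others of the 10 lay 123873 bp from Fgf14 and 343259 bp from Plk2, and 2 were nearest to the vomeronasal receptor genes Vmn2r87 and Vmn2r129. Of the regions named here, all but that nearest to Vmn2r129 were among the 50 of high local background.

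None of the 10 regions without any LSC peak was in the top 10% by fold of both HSC lists. Their median fold percentile was 80.4 in HSC library 1 and 64.4 in library 2. The medians were 80.5 and 74.6 for regions with 1 to 3 LSC libraries, and 87.9 and 81.2 over all 219 regions. In library 1 the regions with none were thus level with those with some. The first by mean percentile, chr16:3116288-3116594, had folds of 13.8 and 11.2 and lay in the first 4 Mb, 475804 bp from Olfr161. Inside the predicted gene Gm10410 a region had 14.1 and 10.1. Inside Gtf2ird1, a transcription regulator, the folds were 9.50 and 6.65, inside Sfi1, a centrosome gene, 7.87 and 4.75, and inside Ndst3, a heparan sulfate enzyme, 4.40 and 6.01. The region that met the snoRNA, chr7:59771510-59771800, lay in Snhg14, the long host transcript of the imprinted Snrpn locus, with 5.96 and 5.50.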

How the data were processed

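The authors' deposited peak lists, one per library, were used as given. Per the submitters' processing notes, the tools named are Bowtie2 2.2.9, FastQC 0.11.5, ChIPseeker and MACS2, and the build is mm10; caller settings and duplicate handling: not given in the sources used here. Each deposited line gives a score, a fold (a linear ratio of summit over local background), −log10 p and −log10 q values. Peaks were called per library, and the lists end at a q of 0.05. Weak single-library calls, fragment length and repeat mapping may act on the counts through these lists, which was not tested.

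Lists were overlapped (at least 1 bp) and summarised with Python 3.11.15, numpy 2.4.6, pandas 2.3.3 and scipy 1.17.1, and the overlap and background scripts were tested on simulated data. Summit pileup and local background were recovered within a relative tolerance of 0.0001 for 100% of peaks. Genes (21887 protein-coding) were read from RefSeq's GRCm38.p6 table, which has no strand, and promoter sequences from RefSeq. Only outermost gene ends were searched. Tests were two-sided exact permutations of 1 value per library. Named regions were the 10 with the highest mean HSC fold percentile per LSC class, gene-end and small RNA regions, the 5 widest, clusters of 3 or more, and those near a listed gene; some are given in full and the rest by count. Other regions named (on chromosomes 2, 12, 14 and 17, and at Add3 and Gm40237) were chosen after their values were seen. The members and lists were chosen with earlier results of these data known. Libraries with the same number were not paired by any label.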

Additional observations from a re-analysis of the deposited data

Results flagged for a closer look

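Peaks on unplaced scaffolds, which the regions leave out, were 50 of 1095 (4.57%, Wilson 95% interval 3.48 to 5.97%) in HSC library 1 and 30 of 664 (4.52%, 3.18 to 6.38%) in HSC library 2. In the LSC libraries they were 0.204 to 0.637% of peaks, though similar in number at 30 to 52. One scaffold, JH584304.1, held 33 of the 50 and 25 of the 30, and 29 pairs of HSC peaks overlapped on scaffolds. Both values stood out because they lie in data that the comparisons do not use.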

How the results depend on the processing

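Over 107 alternatives, 72 values held, 30 moved and 5 reversed. A tested value held if it kept its direction and side of the threshold. Without a test, a count held within 1.5 times of the reported value, and other values held within the spread. Limits for median widths were tighter than 1.5 times, as 476 bp against 447.5 bp counted as moved. Reversed were the control minus Nup214-HET difference in share, which was -16.7 with LSC lists cut to 4681 peaks, -14.4 with a cut to 634 and -0.811 without regions narrower than 320 bp, and the difference in fold percentile, which was 1.14 and 3.15 under the same cuts. Shorter lists hold fewer peaks to meet. The cut to 634 gave 51 regions with all 4 LSC libraries and 83 with none, with median widths of 540, 572 and 497 bp for all 4, some and none, so that the regions with all 4 were no longer the widest. The cut to 4681 gave 25 with none, and widths of 521.5 and 344 bp for some and none. The share near a gene end was 10.5% within 5 kb and 2.28% within 1 kb of a transcription start.

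With 1 HSC library left out, the 634 to 1045 peaks of the other stand as regions, 112 to 278 with all 4 LSC libraries, 183 to 369 with some and 339 to 398 with none. With 1 LSC library left out, the 219 regions divided into 111 to 123 with all the remaining LSC libraries, 84 to 90 with some and 10 to 23 with none. With 1 HSC library left out, the share near a gene end ran from 3.00 to 17.3%, and rests on the library: HSC library 1 alone gave 17.3%. With any 1 HSC or LSC library left out, median widths were 389 to 659, 307 to 476 and 246 to 369 bp for all 4, some and none. The share difference was then 0.913 to 16.0 and the percentile difference -8.65 to -3.58. With the replicate block the differences were 8.45 and -5.98, each with exact permutation p = 0.5, the smallest possible; deviations of same-numbered LSC libraries correlated at 0.131 over regions. Without high-background regions the share difference was 4.44. Alternatives on local background, narrow regions, CCAAT and long tandem periods were chosen after seeing the data. Sequence measures over whole regions were not run, as no genome was used here. Depth per library is unknown, so an absent peak does not show an absent signal.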
